A study of Homo sapiens with 16 samples.

Results

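The MYC neighbourhood at 8q24 was examined as a window of 3 Mb on chromosome 8, 127.8 to 130.8 Mb in hg19, and its members were all MED1 peaks of the 6 deposited peak lists that overlap it. The rule used position only and no measured value. It found 80 of the 3464 peaks in the 6 lists, namely 2 of 66 in MED14-AID cells with auxin and Nutlin-3a, 1 of 53 with auxin, 16 of 522 with water and Nutlin-3a, 18 of 463 with water, 22 of 1254 in WT cells with Nutlin-3a and 21 of 1106 in WT cells with DMSO. Merging peaks that overlap between lists gave 24 regions. Each was assigned to the nearest of 4 anchors, whose rounded positions are CCAT1 at 128.22 to 128.23 Mb, MYC at 128.75 Mb, PVT1 at 128.81 to 129.11 Mb and GSDMC at 130.76 Mb.

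MYC encodes a transcription factor that drives growth and proliferation and is a target of Wnt and beta-catenin signalling in colorectal cancer. In colorectal tumours and cell lines a super-enhancer, a dense cluster of enhancers with high Mediator occupancy, lies upstream of MYC, gives rise to the long non-coding RNA CCAT1 and contacts the MYC promoter through chromatin loops. PVT1, the long non-coding RNA gene next to MYC, is known as a partner of MYC in cancer gains, its promoter competes with that of MYC for enhancers, and it holds a p53 response element; in mouse cells the isoform it drives is known to lower Myc expression. GSDMC, farther along the arm, encodes a member of the gasdermin family of pore-forming proteins. In the RefSeq gene table, which is of GRCh38.p14, CASC21, CASC8, CCAT2, POU5F1B and CASC11 lie between CCAT1 and MYC, PVT1 follows MYC, and CCDC26 and MIR3686 are the last genes before GSDMC.

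MED1 is a subunit of Mediator, the complex that bridges enhancer-bound factors and RNA polymerase II, and its occupancy was mapped by ChIP-seq in HCT116, a human colorectal carcinoma line. HCT116 is known to carry gained material of the long arm of chromosome 8, and copy number was not measured here. The edited line (OsTir1+/-;Med14-AID+/+) carries an auxin-inducible degron on MED14, the backbone subunit of Mediator, and the plant F-box protein OsTir1 that directs the tagged protein to degradation. These MED14-AID cells received 500 µM auxin and then Nutlin-3a, auxin alone, water and then Nutlin-3a, or water alone; auxin or water lasted 3 h and Nutlin-3a, an MDM2 inhibitor that stabilises p53, a further 1 h. The labels name no DMSO for MED14-AID cells without Nutlin-3a and no dose of Nutlin-3a. Unmodified WT cells received Nutlin-3a or DMSO for 1 h and no auxin. Each MED14-AID list comes from 1 MED1 library, and each WT list is 1 joint list for 2 MED1 libraries. No list has a replicate list, so no difference between conditions can be set against a spread and none was tested. The lists give no read totals, the depth is unknown, and an interval below reflects how many peaks were counted and nothing else; neighbouring peaks of a cluster are not independent. The weakest peak of a list had a −log10 q between 1.58 and 2.76, so binding weaker than that is not seen here.

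Most MED1 peaks of the window lay in a cluster at CCAT1 and on its MYC side, with others at the MYC anchor and before GSDMC. Away from these stood a WT Nutlin-3a peak from 128608319, 141.1 kb from the MYC anchor, and a peak with water and Nutlin-3a from 128412921, 182.9 kb from the CCAT1 anchor. At CCAT1 the lists with auxin and Nutlin-3a, auxin, water and Nutlin-3a, and water held 1, 1, 12 and 13 peaks, and the WT lists with Nutlin-3a and DMSO held 17 and 16. Around MYC the counts were 0, 0, 1 and 2 in MED14-AID cells in the same order, and 3 and 2 in WT cells. Around GSDMC they were 1, 0, 3 and 3 in MED14-AID cells, and 2 and 3 in WT cells. PVT1 was the nearest anchor of no peak in any list. Of the 24 regions, 19 lay around CCAT1, 2 around MYC and 3 around GSDMC.

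**Figure D1:**
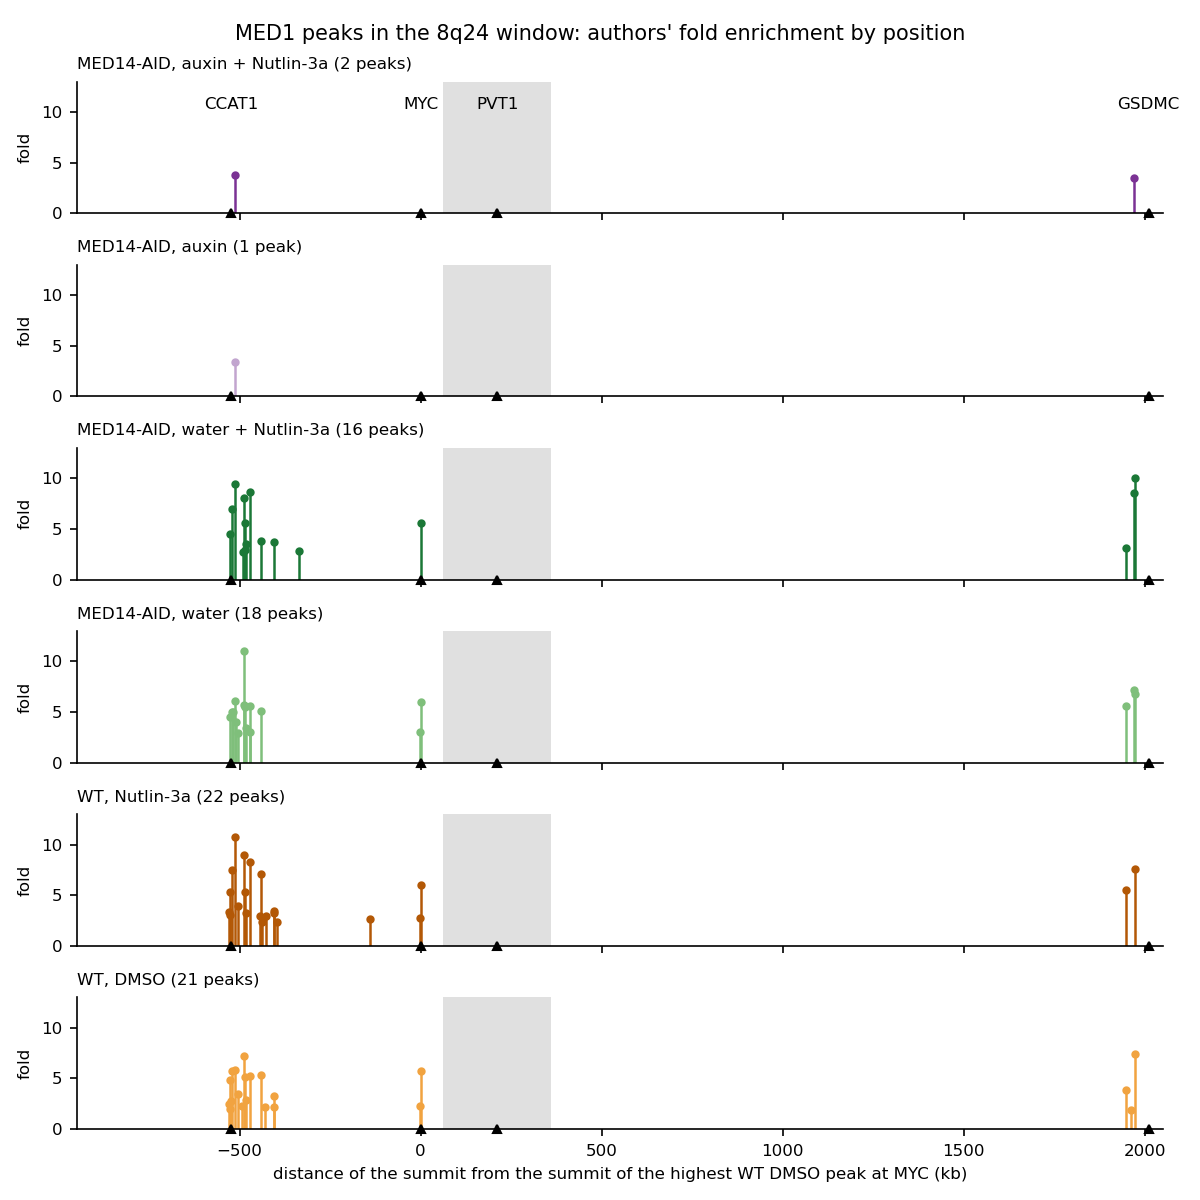
Authors' fold enrichment over background of every MED1 peak in the window (vertical axis, linear, same scale in each row) against the distance of its summit from the highest WT DMSO summit at MYC in kb (horizontal axis), 1 row per list; triangles mark the anchors (the midpoint of a span) and the grey band the PVT1 span. Most peaks stand at CCAT1, at MYC and before GSDMC, with single peaks apart from these in the rows for water and Nutlin-3a and for WT Nutlin-3a; the PVT1 band is empty in all 6 rows, and the auxin rows hold 2 peaks and 1 peak.

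Of the 24 regions, 11 (45.8%) were in all 4 lists without auxin, against 18.2% of all 1584 regions of the series. These 11 were 8 around CCAT1, 1 at MYC and 2 before GSDMC, and their highest authors' fold in any list ranged from 3.52 to 11.03. The 7 regions found in only 1 list (29.2%, against 46.0% of all regions) had folds of 1.89 to 2.78. The first range takes the highest of several lists and the second a value from 1 list, so they are not alike. The fold of a peak is the caller's own ratio over background, and a rank places a peak within its own list. Neither shows a change between lists, which differ in length and in libraries.

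The widest member lay just past the CCAT1 anchor, in the region from 128230681 to 128239847. It was the one region of the window's 24 in all 6 lists, against 31 of the 1584 regions of the series. With auxin and Nutlin-3a its peak was 539 bp wide with a fold of 3.72, and with auxin 509 bp with a fold of 3.40. With water and Nutlin-3a it was a single peak of 8104 bp with a fold of 9.39, the widest peak of that list. With water it was split into 3 peaks of 2379, 4633 and 1036 bp with folds of 4.98, 6.07 and 3.99. In WT cells it was a single peak of 8720 bp with a fold of 10.8 with Nutlin-3a and of 9140 bp with a fold of 5.81 with DMSO, and it ranked 2 by width in both WT lists. By fold these single peaks ranked 22 of 522 with water and Nutlin-3a, 16 of 1254 in WT cells with Nutlin-3a and 89 of 1106 with DMSO. MED1 peaks thus covered several kilobases of the region in each of the 4 lists without auxin, and one short stretch of it in each auxin list.

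The next strong site of the CCAT1 cluster, from 128257321 to 128262462, held the highest fold of the window in the water list. It was in neither auxin list. Its peaks had folds of 8.03 and 2.71 with water and Nutlin-3a, and of 11.03 and 5.69 with water. In WT cells its single peak had a fold of 8.94 with Nutlin-3a and 7.25 with DMSO. The highest of its peaks ranked 37 of 522, 14 of 463, 38 of 1254 and 34 of 1106 in those lists, so it stood in the top 10% of all 4.

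Further along, the region from 128276240 to 128279465 had a fold of 8.69 with water and Nutlin-3a, peaks of 5.63 and 3.08 with water, 8.30 in WT cells with Nutlin-3a and 5.27 with DMSO. The region from 128226267 to 128229579, at the CCAT1 anchor itself, had folds of 7.0 with water and Nutlin-3a, 4.99 with water, 7.54 in WT cells with Nutlin-3a and 5.70 with DMSO. Both were absent from the auxin lists. In all, 5 regions overlapped the CCAT1 anchor. The first of them, from 128218068 to 128220157, was listed in WT cells alone, with folds of 3.36 with Nutlin-3a and 2.51 with DMSO. The other CCAT1 regions in all 4 lists without auxin had a highest fold of 3.52 to 7.14.

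Joined across gaps of up to 12.5 kb, the peaks at CCAT1 made some of the largest MED1 clusters of each list without auxin. With water and Nutlin-3a there were clusters of 3 and 6 peaks with 10.4 and 8.51 kb of peak, which ranked 3 and 5 of 329 by that length. With water there were 2 clusters of 6 peaks each with 11.0 and 9.16 kb of peak, ranking 2 and 5 of 292. The WT Nutlin-3a list had clusters of 6 and 4 peaks with 16.5 and 11.0 kb of peak, ranking 4 and 7 of 806. The WT DMSO list had a single cluster of 12 peaks over 61.2 kb, with 30.6 kb of peak, and this was the first of 756 by length of peak. The single DMSO cluster and the WT Nutlin-3a pair differ by the joining rule. A DMSO peak of 543 bp and a fold of 2.29, from 128253794 to 128254336, lies in the stretch that is a gap of 13.7 kb in the Nutlin-3a list.

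**Figure D2:**
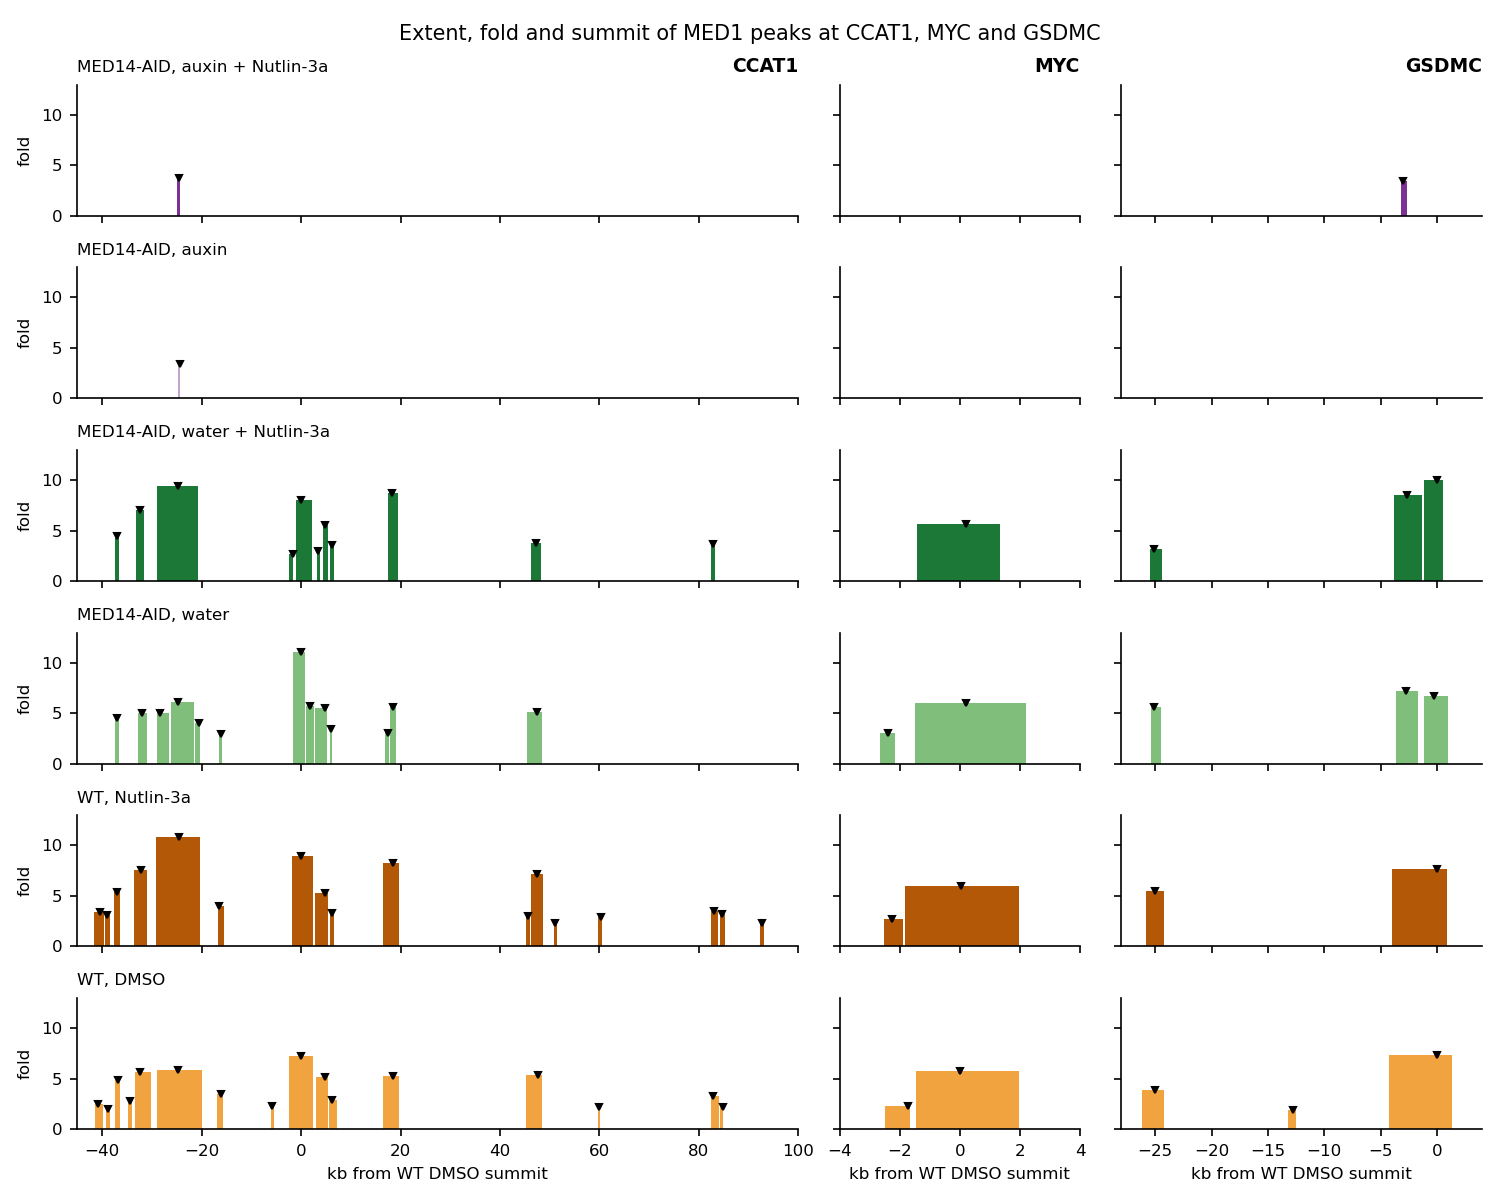
MED1 peaks as bars from start to end with the authors' fold as height (linear axis) and a triangle at the summit, in 1 row per list, for CCAT1, MYC and GSDMC; each horizontal axis gives kb from the summit of the highest WT DMSO peak of that gene's column, and 2 peaks farther out (1 around CCAT1, 1 around MYC) are not drawn. The widest CCAT1 region is a broad block in the 4 lists without auxin, split into 3 bars with water. In the auxin lists it is a narrow bar at the middle of that region, and the MYC column is empty under auxin.

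At MYC, a broad MED1 peak was in every list without auxin and in neither auxin list. It covered the anchor's rounded position in 3 of these 4 lists and ended 0.091 kb short of it with water and Nutlin-3a. The peak spanned 128747134 to 128749909 with water and Nutlin-3a (fold 5.62), 128747092 to 128750789 with water (fold 6.02), 128746760 to 128750542 in WT cells with Nutlin-3a (fold 6.02) and 128747105 to 128750544 with DMSO (fold 5.78). By width, 2776, 3698, 3783 and 3440 bp, it ranked 12 of 522, 4 of 463, 26 of 1254 and 22 of 1106. By fold it ranked 124, 82, 128 and 90 in the same lists, so it stood higher in each list by width than by fold. A small second peak just before it was listed with water (fold 3.00), in WT cells with Nutlin-3a (fold 2.75) and with DMSO (fold 2.25), and not with water and Nutlin-3a. The summit of the broad peak was the zero point for the distance to the highest CCAT1 peak. That peak lay at −513.7 kb with water and Nutlin-3a and at −513.5 kb in WT cells with Nutlin-3a, both times in the broad CCAT1 region. With water and with DMSO it lay in the region from 128257321, at −489.1 and −488.8 kb.

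No MED1 peak was listed in the PVT1 span in any of the 6 lists. In the lists without auxin the nearest peak to it was the one at MYC, 60.1 and 59.2 kb away with water and Nutlin-3a and with water, and 59.5 kb away in both WT lists. From the end of the MYC peak to the first GSDMC region, 1946 kb held no peak of any list. The lists hold no signal below the calling threshold, so weaker MED1 binding at PVT1 was not analysed here.

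Before GSDMC, the region from 130718818 to 130724361 was among the strongest members. With auxin and Nutlin-3a a peak of 500 bp with a fold of 3.47 was listed there, and with auxin none. It held a pair of peaks in the edited line without auxin, with folds of 8.55 and 10.02 with water and Nutlin-3a and of 7.22 and 6.74 with water. In WT cells it was a single peak, of 4838 bp with a fold of 7.63 with Nutlin-3a and of 5544 bp with a fold of 7.37 with DMSO. It was the highest member by fold with water and Nutlin-3a (rank 18 of 522) and with DMSO (rank 31 of 1106). The nearby region from 130696900 to 130698821 had folds of 3.16 with water and Nutlin-3a, 5.59 with water, 5.52 in WT cells with Nutlin-3a and 3.91 with DMSO. The third GSDMC region, from 130709845 to 130710517, was listed with DMSO alone, with a fold of 1.89 and a −log10 q of 1.58, the lowest of the 1106 peaks of that list.

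Nutlin-3a, through p53, bears on MYC, whose expression p53 is known to lower. In WT cells most MED1 positions of the window were listed both with Nutlin-3a and with DMSO. With Nutlin-3a, 3 of the 22 window peaks (13.6%, Wilson 95% interval 4.75 to 33.3%) had no counterpart with DMSO, against 35.0% over the complete list. With DMSO, 3 of 21 (14.3%, 4.98 to 34.6%) had no counterpart with Nutlin-3a, against 26.5% over the complete list. The 3 Nutlin-only peaks started at 128608319, 128352100 and 128310552 and had folds of 2.66, 2.36 and 2.33, at ranks 1056, 1184 and 1195 of 1254. All 3 lie between the CCAT1 and MYC anchors, and MYC is the nearest anchor of the first alone. The 3 DMSO-only peaks started at 128224961, 128253794 and 130709845 and had folds of 2.78, 2.29 and 1.89, at ranks 766, 1041 and 1091 of 1106. None of the 6 was in any MED14-AID list, and all 6 were in the lower part of their own list. How often Nutlin-only or DMSO-only peaks of the complete lists were in a MED14-AID list was not counted. This absence is thus not shown to be particular to the window. Of all WT peaks, 33.2% with Nutlin-3a and 33.3% with DMSO were in the matching MED14-AID list. Summits of overlapping peaks lay a median of 94 bp apart in 19 window peaks and 79 bp apart in the 815 overlapping peaks of the whole list.

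In MED14-AID cells with water the count of peaks without a counterpart depended on the overlap asked for. With Nutlin-3a, 2 of 16 peaks (12.5%, 3.50 to 36.0%) overlapped none of the water list, against 31.2% of the list. Without it, 2 of 18 (11.1%, 3.10 to 32.8%) overlapped none of the water and Nutlin-3a list, against 22.5%. Where both peaks had to share 50% of their length, 6 of 16 were Nutlin-only (37.5%), against 43.3% of the list, and 8 of 18 were water-only (44.4%), against 36.1%. The peaks named next are those that overlapped none. The Nutlin-only peaks were at 128342274 (fold 3.66), which both WT lists also held, and at 128412921 (fold 2.77), which no other list held. The water-only peaks were the small one before MYC (fold 3.00) and one at 128243313 (fold 2.95), and both WT lists held both.

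The window's median fold was above that of its list in each of these lists: 5.02 against 4.25 with water and Nutlin-3a, 5.33 against 4.38 with water, 3.73 against 3.41 in WT cells with Nutlin-3a and 3.45 against 3.19 with DMSO. The shares changed when a limit was set on −log10 q, and not all in the same direction. Among peaks with a −log10 q of at least 10 set against the complete other list, none of 18 WT Nutlin-3a peaks was Nutlin-only, against 15.8% of the list, and none of 13 WT DMSO peaks was DMSO-only, against 5.98%. In MED14-AID cells with water, none of 10 was Nutlin-only, against 12.0%, and none of 14 was water-only, against 5.99%. With that limit in both lists, 4 of 18 WT Nutlin-3a peaks (22.2%) were Nutlin-only and 0 of 13 WT DMSO peaks were DMSO-only. In MED14-AID cells with water, 0 of 10 were then Nutlin-only and 1 of 14 (7.14%) was water-only. No share over the complete lists was taken with the limit in both. The part of strength in these shares was not tested.

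After auxin, the agent that targets MED14-AID for degradation, nearly all MED1 peaks of the window were no longer listed. With Nutlin-3a, 2 of the 16 water peaks (12.5%, 3.50 to 36.0%) overlapped an auxin peak, against 9.0% of that list. Without Nutlin-3a, 1 of 18 (5.56%, 0.988 to 25.8%) did, against 9.50%. The values over the lists lie inside the window's wide intervals. Where both peaks had to share 50% of their length, 0 of the 16 and 0 of the 18 were kept, against 5.75% and 7.34% of those lists. The window's auxin peaks, 539, 500 and 509 bp wide, lay in matching water peaks of 8104, 2487 and 4633 bp. Their widths alone fixed this 0, which thus says nothing on whether the positions were kept. Read from the auxin side, both peaks of the window with auxin and Nutlin-3a lay in a peak of the matching water list, against 74.2% of that auxin list, and the single peak with auxin alone did too, against 83.0%. Of the pair with auxin and Nutlin-3a, 1 was absent with auxin alone, against 48.5%, and the peak with auxin alone was not absent with Nutlin-3a, against 37.7%.

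The kept positions were the middle of the broad CCAT1 region and the first of the GSDMC pair. The CCAT1 summit lay at 128235308 with auxin and Nutlin-3a and at 128235334 with auxin, 26 bp apart. It was 260 bp from the summit of the matching water peak with Nutlin-3a and 301 bp without it, where the medians over all peaks of those auxin lists with a counterpart were 40 and 49 bp. The GSDMC summit, at 130720068, was at −343 bp from that of the matching water peak and at −2975 bp from that of the single WT Nutlin-3a peak. All 3 auxin peaks were low in their own lists, at ranks 57 and 61 of 66 by fold with auxin and Nutlin-3a, and 48 of 53 with auxin.

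Some of the highest window peaks were not listed under auxin. With water, 3 window peaks had a higher fold than the kept one, namely the CCAT1 peak from 128258066 (11.03) and the GSDMC pair (7.22 and 6.74), and none was listed with auxin. The first of these was the only window peak in the top 10% of the water list by fold, where 43.5% of 46 peaks were kept. With water and Nutlin-3a, 5 window peaks were in the top 10%, of which 2 were kept, against 51.9% of 52. Of those not kept, the second of the GSDMC pair (10.02) exceeded both kept peaks.

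The edited line without auxin was set against WT cells. All 18 window peaks with water (100%, 82.4 to 100%) were in the WT DMSO list, against 85.1% of the water list. With Nutlin-3a, 15 of 16 (93.8%, 71.7 to 98.9%) were in the WT Nutlin-3a list, against 86.8%. Where both peaks had to share 50% of their length, the window's shares were 68.8% with Nutlin-3a, against 57.7% of that list, and 38.9% without it, against 59.2%. In reverse, 12 of 22 WT Nutlin-3a peaks (54.5%, 34.7 to 73.1%) were in the matching MED14-AID list, against 33.2%, and 13 of 21 WT DMSO peaks (61.9%, 40.9 to 79.2%) were, against 33.3%. With 50% of both lengths the shares were 50.0% with Nutlin-3a, against 24% of the list, and 33.3% with DMSO, against 24.8%. Some broad WT peaks were several peaks in the edited line. The 11 regions in all 4 lists held 14 peaks with water and Nutlin-3a and 17 with water, against 13 and 12 in WT cells with Nutlin-3a and DMSO. Summits with water lay a median of 232 bp from those with DMSO, against 108 bp over the list. With Nutlin-3a the median was 87 bp, against 99 bp. Line, mock treatment and number of libraries differ together here and cannot be told apart.

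**Figure D3:**
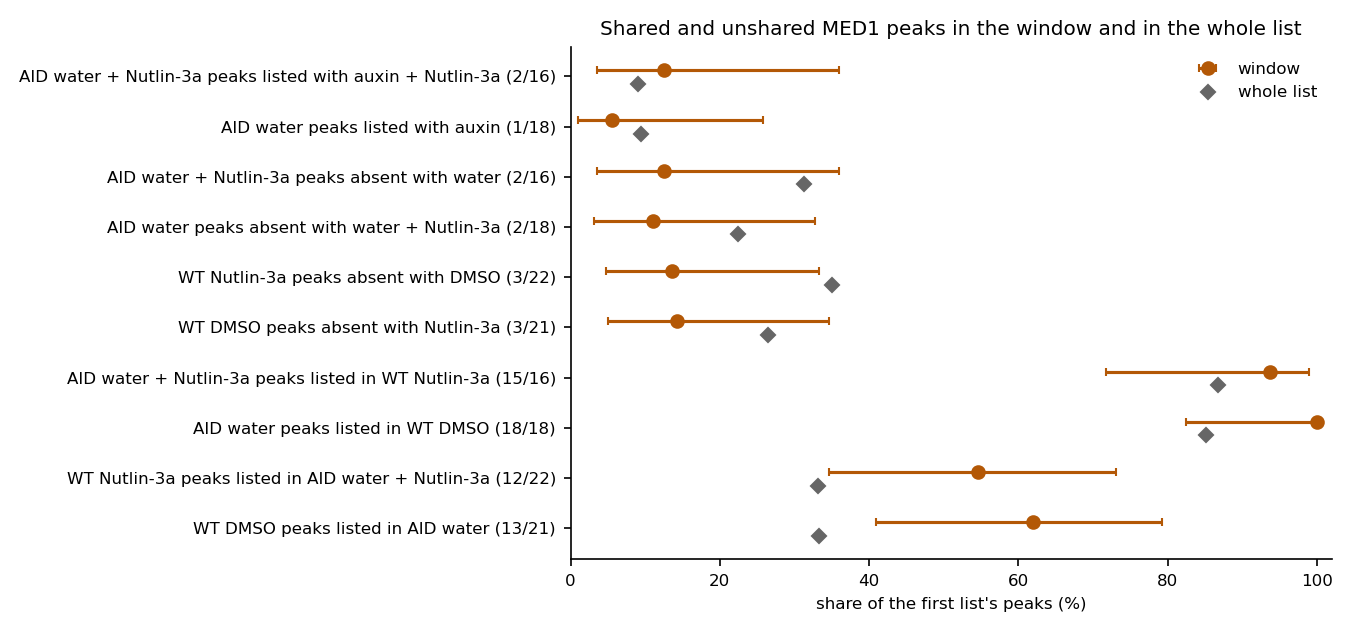
Share of the peaks of the first-named list that are absent from, or listed in, the other list by an overlap of at least 1 bp (horizontal axis, %), for the window (circles with Wilson 95% intervals, counts in brackets) and for the whole list (diamonds, no interval). Listed-under-auxin shares in the window stand near those of the whole lists, and shares of WT peaks found again in MED14-AID cells (54.5% and 61.9%) stand above them.

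Against the rest of the series the window was dense and its peaks were broad. Tiling the genome in 3 Mb windows in phase with this one, it ranked first by length of peak in each of the 4 lists without auxin. By number of peaks it ranked 4 of the 163 windows that held a peak with water and Nutlin-3a, 1 of 143 with water, 7 of 358 in WT cells with Nutlin-3a and 5 of 352 with DMSO. It was chosen with earlier results of these data known, which favours its rank. It held 3.07% of the peaks and 5.84% of the peak length with water and Nutlin-3a, 3.89% and 6.93% with water, 1.75% and 3.43% in WT cells with Nutlin-3a, and 1.90% and 4.27% with DMSO. In those lists 7, 8, 9 and 9 of its peaks were in the top 10% by width, and 5, 1, 6 and 5 in the top 10% by fold. Its median width was 1322 bp with water and Nutlin-3a, 1654 bp with water, 1334 bp in WT cells with Nutlin-3a and 1597 bp with DMSO, against 831, 833, 818 and 761 bp over those lists. Chromosome 8 as a whole held 8.05 to 11.0% of the peaks of these lists. The 3 Mb upstream of the window held 18 peaks with water and Nutlin-3a and 15 with water, against 16 and 18 in the window. In WT cells it held 28 with Nutlin-3a and 26 with DMSO, against 22 and 21. That stretch thus held more peaks than the window in each list without auxin but the water list. None of them was closer than 1086 kb to the window's edge, and the 3 Mb downstream held at most 1 peak.

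**Figure D4:**
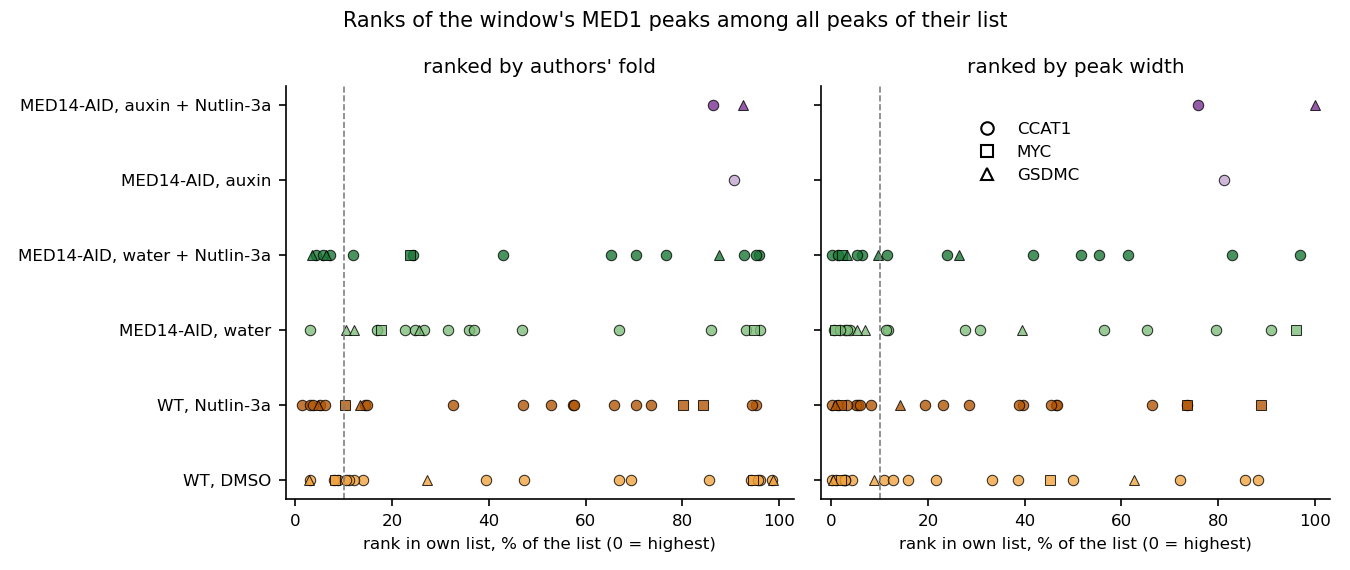
Rank of each window peak in its own list as a percentage of the list's length (0 is the highest or widest), by authors' fold (left) and by width (right), 1 row per list, with circles for CCAT1, squares for MYC and triangles for GSDMC and a dashed line at 10%. Window peaks of the 4 lists without auxin spread over the whole range with a group among the widest, and the 3 peaks under auxin stand near the low end.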

How the data were processed

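MED1 was mapped by ChIP-seq in HCT116 (16 samples: 8 with the MED1 antibody, 8 inputs). The submitters' processing notes name Bowtie 0.12.9, MACS2 2.1.2 and the build hg19; settings, and how the 2 libraries of a WT list were merged, are not given in the sources used here. Per peak, the deposited fold is a ratio to background given by the authors' caller, and the deposited −log10 value used is that of its q-value. Caller ratios depend on depth and background, so folds of different lists are shown side by side and not compared.

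Peaks were compared by an overlap of at least 1 bp, and shares have Wilson 95% intervals. Positions are hg19 and 1-based. Named are the 4 regions with the highest fold per anchor, those nearest an anchor or listed under auxin, and up to 4 peaks per direction found in 1 list of a Nutlin-3a pair. The members and this rule were chosen with earlier results of these data known. Gene names beyond the anchors come from a GRCh38.p14 table and give order only. Alternatives were 50% overlap in both directions, peaks up to 1 kb apart, −log10 q of at least 5 or 10, joined clusters, summits in the window, a distance of 100 kb to an anchor, ranks by −log10 q and another tiling. Python 3.11.15, numpy 2.4.6, pandas 2.3.3 and matplotlib 3.10.9 were used. The overlap code was checked against bedtools 2.31.1, with 0 of 90 counts different, and on simulated data it recovered 300 of 300 copied peaks.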

Additional observations from a re-analysis of the deposited data

How the results depend on the processing

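No paired analysis was possible because the 2 libraries of each WT condition share 1 list, and for the same reason no library could be left out. Of 92 alternative values of the main results, 61 stayed within their interval or within 1.5 times the count and 31 did not. A limit of −log10 q ≥ 10 was set on the first list only. Peaks of 1 list only were then 0% in WT cells and in MED14-AID cells with water, in both directions. Of water and Nutlin-3a peaks 100% were in the WT Nutlin-3a list, and of WT DMSO peaks 92.3% were in the water list. For these shares between the lines no share over the complete lists was taken, so they are not high or low for the window. With that limit in both lists, DMSO-only peaks in WT cells were 0% and Nutlin-only peaks 22.2% (4 of 18). Nutlin-only peaks with water and kept peaks under auxin with and without Nutlin-3a were 0%. Water and Nutlin-3a peaks in the WT list were 100%. No auxin peak of the window (0 in each list) was left, so auxin lists gave no share and kept shares could only be 0%. Left were 10 peaks with water and Nutlin-3a and 13 with DMSO. At 5 in both lists water-only peaks were 0%, and in WT cells Nutlin-only peaks were 23.8% and DMSO-only peaks 6.25%. With 50% reciprocal overlap, kept shares under auxin were 0% with and without Nutlin-3a, Nutlin-only peaks with water 37.5%, water-only peaks 44.4%, MED14-AID peaks in WT lists 68.8% with Nutlin-3a and 38.9% without, and WT DMSO peaks in the water list 33.3%; narrow peaks inside broad ones fail this limit by construction. Counted as joined clusters, the window held 8, 6, 8 and 5 with water and Nutlin-3a, water, WT Nutlin-3a and WT DMSO. DMSO-only and water-only shares were then 0%. In the matching MED14-AID list were 7 of 8 WT Nutlin-3a clusters (87.5%) and 4 of 5 WT DMSO clusters (80.0%). For joined clusters and for limits in both lists no share over the complete lists was taken, so these are not high or low for the window. Ranked by −log10 q, 6, 5, 10 and 9 window peaks were in the top 10%. Tiled from the chromosome start, the 3 Mb window with the most peaks near MYC, which takes in peaks upstream, held 31, 30, 48 and 44.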
